A study of Mus musculus with 6 samples.

Results

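Matrix metalloproteinases, their tissue inhibitors (TIMPs) and the ADAM and ADAMTS proteases were described in whole skin of GC13 mice, a transgenic line that overexpresses the homeobox gene Hoxc13, and of FVB mice, an inbred strain. Members were all probe sets whose gene symbol was Mmp or Timp followed by a number, or began with Adam or Adamts followed by a number. The rule found 43 probe sets of 33 genes, of 8251 named genes on the array. There were 13 metalloproteinase genes on 16 probe sets, 3 TIMP genes on 6, 16 ADAM genes on 20 and 1 ADAMTS gene, Adamts1, on 1. A further 2 probe sets listed Adam1a beside another gene and were not used. The groups held 3 GC13 samples and 3 FVB samples, all taken 5 days after birth, and total RNA of each was measured on 1 Affymetrix expression array. The labels give Hoxc13 overexpression for GC13 and the strain name alone for FVB. The sources used here name neither the promoter that drives the transgene nor the mouse behind each sample, so p-values reflect the spread of these samples alone, and that spread could be technical.

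Metalloproteinases are zinc enzymes, secreted or tethered to the cell surface, that cut collagens, laminins, elastin and other matrix proteins, and in skin they are known from wound repair, hair follicle growth and the remodelling of the dermis. Each TIMP binds their active site and blocks it. ADAMs are membrane proteases that release growth factors, receptors and adhesion molecules from the cell surface, a step known as shedding, and several ADAMs of the testis and nervous system lack protease activity. ADAMTS proteases are secreted and cut proteoglycans and procollagens. All of these enzymes are made as inactive precursors, so a transcript level does not give enzyme activity.

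No probe set was named Hoxc13 in the annotation used here, so the transgene's own level was not checked. The arrays differed in ways that bear on every value below. Gapdh has control probe sets at both ends of its transcript, and a high ratio of the 3' over the 5' set points to lost 5' sequence. This ratio was 2.22, 9.58 and 2.19 on the GC13 arrays, against 0.931, 0.958 and 0.894 on the FVB arrays, and the two-sided exact permutation p was 0.1, which 3 against 3 samples cannot go below. The same ratio for Actb was 1.26, 3.80 and 1.43 in GC13, against 1.36, 1.26 and 1.16 in FVB (exact permutation p = 0.2), so that GC13 replicate 2 was high on both genes while the other GC13 arrays stood apart on Gapdh only. Where the Gapdh ratio parts the groups, RNA quality and line cannot be told apart. GC13 replicate 2, the array with the highest ratio, also stood apart from its group on principal component 1, at 33.9 against -27.6 and -45.4 for replicates 1 and 3, and the members whose values it moved most are given with and without it. Eif2s3y, a gene of the Y chromosome, read 3.25, 143 and 4.60 on the GC13 arrays, against 69.4, 98.9 and 79.6 on the FVB arrays, so that without GC13 replicate 2 the effect of sex and the effect of the line cannot be told apart. With all 6 arrays sex is unequal between the groups as well, and the fit held no term for it. Deposited intensities summed to between 1640876 and 1736141 per GC13 array and between 1626361 and 1644444 per FVB array. Of 7 keratinocyte markers measured, 5 passed the filter on dim probe sets described below, and Krt5 and Krt14 of the basal layer did not, with 1.62 to 14.2 over all arrays. The 7 keratinocyte markers summed to between 5196 and 8771 in GC13 and between 5052 and 5355 in FVB, mostly through Krt1, Krt10 and Lor. All 7 fibroblast markers passed the filter.

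Upstream sequence is shown for 3 members that the results turn on. On 1 probe set each, Adam10 and Timp2 were lower in all GC13 samples than in any FVB sample, while further probe sets of both genes overlapped, and Mmp3 stands for the inducible metalloproteinases of a gene cluster on chromosome 9. Each stretch is the 250 bases before the RefSeq transcription start (GRCm38.p6), written from 5′ to 3′ on the gene's strand. Adam10 is chr9:70678732-70678981 on the plus strand, Timp2 is chr11:118355412-118355661 on the minus strand and Mmp3 is chr9:7445572-7445821 on the plus strand. Capitals mark matches, on either strand, to GGGCGG (the GC box), TGANTCA (the AP-1 element), TATAAA (the TATA box) or TTTAT, a core that posterior Hox proteins are known to bind and that every TATAAA holds on its other strand.
Adam10: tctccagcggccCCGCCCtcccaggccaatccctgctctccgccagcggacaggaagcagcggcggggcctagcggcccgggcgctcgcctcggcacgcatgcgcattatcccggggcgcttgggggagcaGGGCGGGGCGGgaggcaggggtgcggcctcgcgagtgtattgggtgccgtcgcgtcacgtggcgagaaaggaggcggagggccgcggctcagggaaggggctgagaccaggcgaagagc
Timp2: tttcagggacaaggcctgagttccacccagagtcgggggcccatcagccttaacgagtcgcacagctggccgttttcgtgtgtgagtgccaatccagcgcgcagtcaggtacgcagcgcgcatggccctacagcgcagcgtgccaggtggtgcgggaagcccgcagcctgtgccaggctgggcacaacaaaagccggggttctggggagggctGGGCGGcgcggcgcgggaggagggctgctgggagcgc
Mmp3: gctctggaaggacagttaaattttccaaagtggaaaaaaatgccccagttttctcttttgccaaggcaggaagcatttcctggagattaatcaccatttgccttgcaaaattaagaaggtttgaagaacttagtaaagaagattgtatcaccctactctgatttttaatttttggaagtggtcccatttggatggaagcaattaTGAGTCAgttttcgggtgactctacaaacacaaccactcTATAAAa

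The Adam10 stretch held 3 GC boxes and 74% G and C, and the Timp2 stretch 1 GC box and 68% G and C, with none of the other motifs in either. The Mmp3 stretch held 1 AP-1 element and 1 TATA box and 37.6% G and C. The median over all 32851 RefSeq windows was 52.4% G and C, and GGGCGG was in 32.7% of them, TTTAT in 37.3%, TATAAA in 12.4% and TGANTCA in 6.75%. Upstream windows were matched for 20 of the 33 member genes, 24 windows in all, of which 11 held GGGCGG, 10 TTTAT, 5 TATAAA and 6 TGANTCA. Of the 6 windows with TGANTCA, 5 belonged to genes of the chromosome 9 cluster, Mmp3, Mmp7, Mmp10, Mmp12 and Mmp13, and 1 to Adam19. These matches describe the letters of the windows and say nothing of binding.

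**Figure D1:**
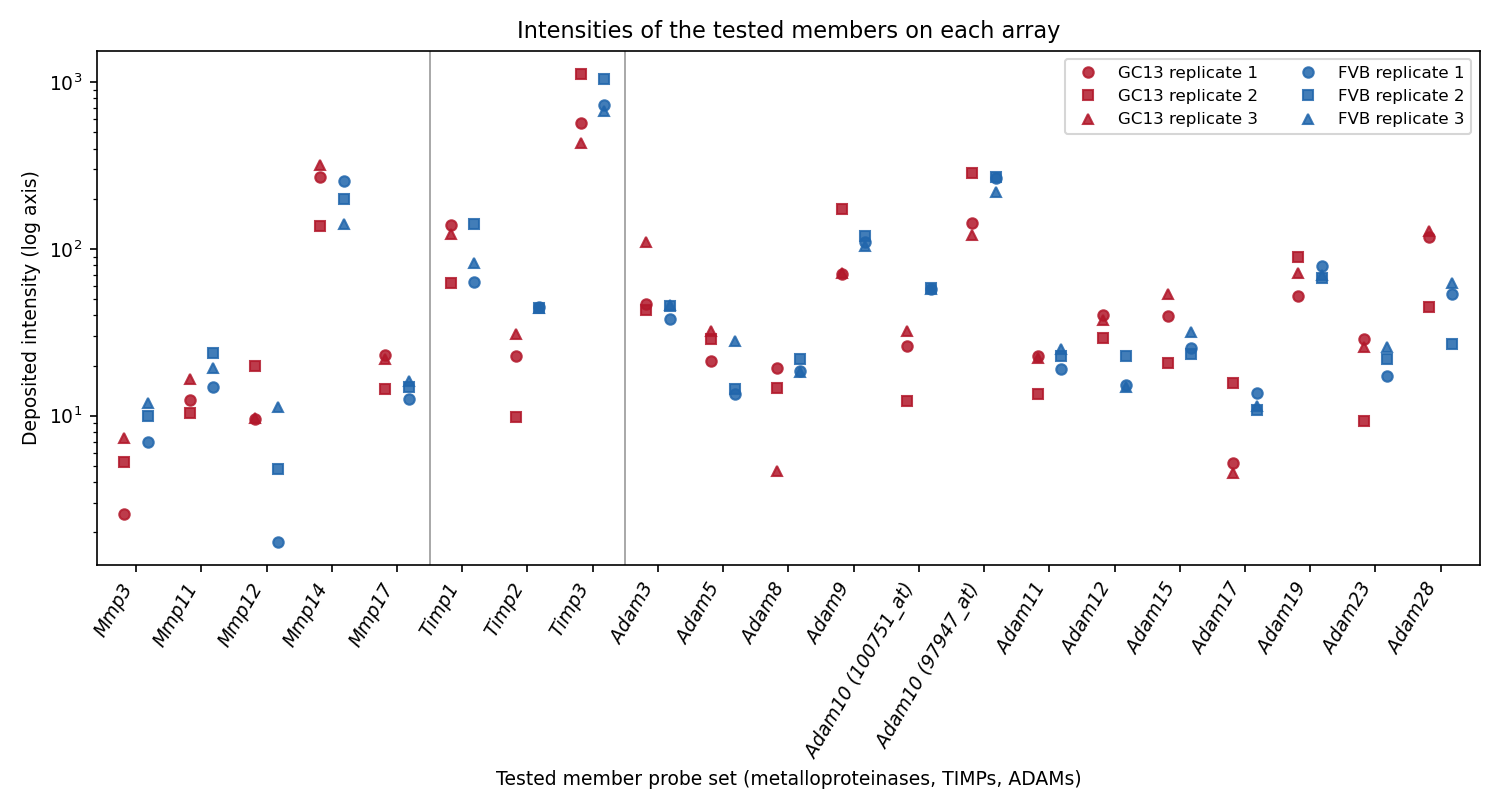
Deposited intensity on a log axis of each of the 21 member probe sets that passed the filter on dim probe sets, on the 3 GC13 arrays (red, left of each pair) and the 3 FVB arrays (blue, right); symbols mark replicates and vertical lines part metalloproteinases, TIMPs and ADAMs. Every GC13 point lies below every FVB point for Timp2 and for the first Adam10 probe set, and above for Adam12, while the other members overlap between the groups.

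The design asks whether these genes respond to extra Hoxc13 in growing skin. No member passed the test. The filter, which dropped the dimmest 25% of probe sets by mean level, kept 21 member probe sets of 20 genes, and 0 of these 21 had a limma adjusted p under 0.05, where 44 of all 9316 probe sets tested (0.472%) did. At an unadjusted p under 0.05 there were 4 members, against 15.5% of all probe sets, namely the first Adam10 probe set, Adam12, Timp2 and Adam28. Of the 21 members 10 lay above 0 and 11 below, with a median log2 fold change (GC13 minus FVB, on the log2(intensity + 2) scale) of -0.06, beside 57.4% above 0 and a median of 0.08 for all probe sets tested. The intensities of 3 members did not overlap between the groups, beside 22.9% of all probe sets. Adam12 was the 1 higher in GC13, where 10.6% of all probe sets were, and Timp2 and the first Adam10 probe set were the 2 lower, where 12.3% were. With 21 members these counts lie near the background and are no result about the members as a set. Without GC13 replicate 2, limma called 7 of the 21, in a comparison where 14.8% of all probe sets passed. With arrays weighted by their agreement with the fit, it called 10 of the 21, where 41.3% of all probe sets passed. There GC13 replicate 2 had a weight of 0.107, so sex nearly divides that comparison too.

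Among the metalloproteinases, 5 of 16 probe sets passed the filter, those of Mmp3, Mmp11, Mmp12, Mmp14 and Mmp17, and their limma adjusted p ran from 0.332 to 0.686. Mmp14, the membrane-type metalloproteinase that activates the Mmp2 precursor and cuts collagen at the cell surface, had intensities of 271, 138 and 320.5 on the GC13 arrays, against 257, 200.5 and 141 on the FVB arrays. The groups overlapped, and GC13 replicate 2 had the lowest value of the 6. Its log2 fold change was 0.31 (SE 0.33), with a 95% interval from -0.44 to 1.07, and it was 0.58 without GC13 replicate 2 and 0.07 without FVB replicate 3. Mmp3, stromelysin-1, which cuts many matrix proteins and activates other metalloproteinases, had 2.57, 5.28 and 7.37 in GC13, against 7.002, 10.03 and 11.99 in FVB. Only the highest GC13 value and the lowest FVB value crossed, and once arrays were centred the groups no longer overlapped. The log2 fold change was -0.69 (limma, SE 0.31, adjusted p = 0.336), or -0.38 without GC13 replicate 1, at a signal close to the filter, whose limit corresponded to an intensity of about 6.2.

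Mmp17, a metalloproteinase anchored to the membrane by a lipid, had 23.2, 14.4 and 21.9 in GC13, against 12.5, 14.97 and 16.2 in FVB, with GC13 replicate 2 inside the FVB range before the arrays were centred and above it afterwards. Its log2 fold change was 0.45 (limma, SE 0.21, adjusted p = 0.341). Mmp12, the elastase of macrophages, had 9.60, 19.7 and 9.65 in GC13, against 1.75, 4.81 and 11.2 in FVB, on the probe set that passed the filter. The FVB arrays spanned a wide range, and the groups overlapped, at a log2 fold change of 1.11 (limma, SE 0.49, adjusted p = 0.332), which was 0.72 without GC13 replicate 2 and 0.69 without FVB replicate 1. Its other probe set, below the filter, ran from 3.57 to 9.10 in GC13 and from 2.68 to 6.08 in FVB, and there GC13 replicate 2 was the lowest of its group, whereas it was the highest on the first. The intensities of 9 macrophage markers summed to between 640.2 and 709 in GC13 and between 671 and 727 in FVB, so the summed level of these markers overlapped between the groups. Single markers went both ways, with 5 above 0 and 4 below, and 0 passed. C1qa (-1.87) and C1qb (-0.56) were lower, and Adgre1 (0.76) higher, in all GC13 samples than in any FVB sample. The part of macrophages in the Mmp12 values was not tested. Mmp11, stromelysin-3, a metalloproteinase of stromal cells that is activated by furin, had a log2 fold change of -0.42 with 12.4, 10.4 and 16.6 in GC13, against 14.8, 23.9 and 19.4 in FVB, and overlapped between the groups.

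The other 11 metalloproteinase probe sets were dim on all arrays, from 0.223 to 9.10, and were not tested in the main comparison. They belonged to Mmp2 and Mmp9, the gelatinases, Mmp8 and Mmp13, which are collagenases, Mmp7, known as matrilysin, Mmp10, known as stromelysin-2, the membrane-type enzymes Mmp16 and Mmp24, and the second probe set of Mmp12. Mmp2 had 8.60, 4.89 and 9.08 in GC13, against 8.32, 1.57 and 7.78 in FVB on one probe set, and values from 0.707 to 5.76 in GC13 and from 0.606 to 1.53 in FVB on the other. Mmp9 lay between 1.99 and 6.24 in GC13 and between 0.765 and 3.23 in FVB over its 2 probe sets. Mmp13, the collagenase of rodent skin and bone, had 4.48, 4.88 and 3.40 in GC13, against 2.60, 4.22 and 1.82 in FVB. All of these overlapped between the groups, and at such intensities the signal over background is unknown, so the values do not show whether the transcripts were present. By RefSeq gene order, Mmp3, Mmp7, Mmp8, Mmp10, Mmp12 and Mmp13 lie within 10 consecutive protein-coding genes on chromosome 9. Of these 6 neighbours, Mmp3 and Mmp12 had a probe set past the filter, and their log2 fold changes had opposite signs.

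The inhibitors were each measured by 1 probe set past the filter. Timp2, which inhibits metalloproteinases and also helps Mmp14 to activate the Mmp2 precursor, had intensities of 22.8, 9.83 and 30.9 on the GC13 arrays, against 45.1, 44.0 and 44.3 on the FVB arrays. All GC13 values lay below all FVB values, GC13 replicate 2 was the lowest, and the FVB values lay close together. The means were 21.1 ± 10.6 in GC13 and 44.5 ± 0.592 in FVB (SD, n = 3 each). The log2 fold change was -1.05 (limma, SE 0.30, adjusted p = 0.1799), a 2.08-fold lower level. Without GC13 replicate 2 it was -0.73 (limma, SE 0.16, adjusted p = 0.0346), in the comparison that sex also divides. The other 2 Timp2 probe sets were dim. The first had 2.05, 1.32 and 11.3 in GC13, against 1.29, 1.63 and 3.73 in FVB. The second had 1.79, 0.684 and 1.70 in GC13, against 1.03, 1.13 and 1.47 in FVB. The groups overlapped on both, so the difference rests on 1 of 3 probe sets.

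Timp3, the inhibitor that is bound to the matrix and also blocks Adam17 and Adam10, had 571, 1119 and 429.6 in GC13, against 728, 1042 and 669.7 in FVB. GC13 replicate 2 had the highest value of all 6 arrays and the other GC13 arrays the lowest. The log2 fold change was -0.22 (limma, SE 0.43, adjusted p = 0.836) with all arrays and -0.71 (limma, SE 0.26, adjusted p = 0.104) without GC13 replicate 2. Timp1, a secreted inhibitor encoded on the X chromosome, had 139.9, 62.6 and 122 in GC13, against 63.4, 141 and 82.7 in FVB. The ranges of the groups nearly coincided, at a log2 fold change of 0.25 (limma, SE 0.35, adjusted p = 0.764). Leaving out 1 array moved it to between 0.02, without FVB replicate 1, and 0.55, without FVB replicate 2, and without GC13 replicate 2 it was 0.50. Its dim second probe set ran from 0.0628 to 4.01 in GC13 and from 0.110 to 0.765 in FVB.

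Among the ADAMs, 13 of 20 probe sets of 12 genes passed the filter. Adam10, the main sheddase of Notch, the amyloid precursor protein and E-cadherin, was measured by a pair of probe sets. The dimmer had 26.4, 12.2 and 32.1 in GC13, against 57.3, 58.5 and 57.9 in FVB. Every GC13 value lay below every FVB value, and GC13 replicate 2 was the lowest. The means were 23.6 ± 10.3 in GC13 and 57.9 ± 0.649 in FVB (SD, n = 3 each), a log2 fold change of -1.25 (limma, SE 0.27, adjusted p = 0.110) or a 2.37-fold lower level. The brighter had 144, 286 and 122 in GC13, against 265, 271 and 221 in FVB. Here GC13 replicate 2 was the highest of all arrays and replicates 1 and 3 lay below all FVB arrays, at a log2 fold change of -0.47 (limma, SE 0.39, adjusted p = 0.5995). The probe sets of this gene thus disagreed on GC13 replicate 2, the lowest array of all on one and the highest on the other, and that array had a Gapdh ratio of 9.58. Which transcripts each probe set reads was not analysed here. The part of RNA quality in this was not tested. Without that array the dimmer set stood at -0.97 (limma, SE 0.14, adjusted p = 0.0143) and the brighter at -0.94 (limma, SE 0.19, adjusted p = 0.0295). In that comparison 14.8% of all probe sets passed, and the effects of sex and line on Adam10 cannot be told apart.

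Adam17, the enzyme that releases tumour necrosis factor and ligands of the epidermal growth factor receptor, had 5.17, 15.8 and 4.51 in GC13, against 13.6, 10.8 and 11.4 in FVB. GC13 replicates 1 and 3 lay below and replicate 2 above all FVB arrays. The log2 fold change was -0.49 (limma, SE 0.45, adjusted p = 0.633) with all arrays and -1.05 (limma, SE 0.18, adjusted p = 0.0197) without replicate 2. The values of GC13 replicates 1 and 3 lay under the intensity of about 6.2 that marks the filter's limit. With a pseudocount of 32 and all arrays the log2 fold change of Adam17 was -0.09. Adam9, a widely expressed sheddase, also had GC13 replicates 1 and 3 below and replicate 2 above all FVB arrays, with 70.9, 175 and 71.6 in GC13, against 111, 119 and 104 in FVB. Its log2 fold change was -0.13 (limma, SE 0.42, adjusted p = 0.908) with all arrays and -0.65 (limma, SE 0.15, adjusted p = 0.0384) without replicate 2. For both genes, sex also divides the comparison without replicate 2. The values of Adam9 and Adam17 were chosen for print after they were seen.

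Adam12, known as meltrin alpha, a protease of mesenchymal and muscle precursor cells, was higher in every GC13 sample. It had 40.5, 29.2 and 37.7 on the GC13 arrays, against 15.3, 23.0 and 14.9 on the FVB arrays. The groups did not overlap, and, unlike for Adam9 and Adam17, GC13 replicate 2 lay on the same side as replicates 1 and 3. The means were 35.8 ± 5.87 in GC13 and 17.7 ± 4.54 in FVB (SD, n = 3 each), and the log2 fold change was 1.02 (limma, SE 0.23, adjusted p = 0.116), a 2.03-fold higher level, with a 95% interval of the log2 fold change from 0.50 to 1.55. Without GC13 replicate 2 it was 1.06 (limma, SE 0.21, adjusted p = 0.0296), in the comparison that sex also divides. Of the 7 fibroblast markers 0 passed the test, 6 lay above 0 and 1 below. They ran from Fbln1 at -0.44 to Pdgfra at 0.87 (SE 0.26), and Dcn stood at 0.12. Pdgfra had 609, 291 and 526 in GC13, against 284, 273 and 228 in FVB, with no overlap. The intensities of the 7 fibroblast markers summed to between 9291 and 11343 in GC13 and between 7595 and 8293 in FVB, mostly through Col1a1, Col1a2 and Col3a1. Of 7 skeletal muscle markers 0 passed, 6 lay above 0 and 1 below, Ckm at -0.10. Their sums, mostly Acta1, were between 2403 and 2770 in GC13 and between 2183 and 2345 in FVB. The highest log2 fold change of these muscle markers was that of Myh3, at 1.04 (SE 0.20). Myh3 had 24.1, 23.4 and 24.0 in GC13, against 10.2, 10.9 and 12.6 in FVB, with no overlap. The marker sums of endothelium, mast cells and male germ cells were likewise higher in every GC13 sample than in any FVB sample. That of bone and cartilage was lower, and those of keratinocytes, hair follicle, macrophages and neutrophils overlapped. The part of any cell type in the Adam12 difference was not tested. In whole skin, more cells of a type and more RNA per cell cannot be told apart. The related meltrin beta, Adam19, had 52.3, 89.2 and 71.9 in GC13, against 79.0, 66.7 and 70.3 in FVB, a log2 fold change of 0.03 (SE 0.28), with an interval from -0.62 to 0.68.

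Adam28, a protease known from lymphocytes and the epididymis, had 118, 45.1 and 128 in GC13, against 53.4, 27.1 and 62.2 in FVB. GC13 replicates 1 and 3 lay above all FVB arrays and replicate 2 lay among them. The log2 fold change was 1.02 (limma, SE 0.41, adjusted p = 0.296). Without replicate 2 it was 1.39 (limma, SE 0.34, adjusted p = 0.0450), in the comparison that sex also divides. Without FVB replicate 2, the lowest array, it was 0.66. Its probe set name ends in _r_at, a label of the array maker for sets built under relaxed rules of probe choice, as do the tested probe sets of Mmp12, Adam3 and Adam5. All 4 members of this kind had log2 fold changes above 0. Among all 490 tested probe sets with this ending the median log2 fold change was 0.30 and 71.6% lay above 0, beside 0.06 and 55.9% for the 7440 plain _at sets, and on GC13 replicate 3 their median difference from the FVB mean was 0.64. The 4 members thus lay on the same side of 0 as most probe sets of this design.

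Adam3 and Adam5, which encode sperm surface proteins, had 46.7, 42.8 and 109.6 in GC13, against 38.2, 45.6 and 45.9 in FVB for Adam3, and 21.4, 28.9 and 32.1 in GC13, against 13.5, 14.4 and 27.97 in FVB for Adam5. Both overlapped between the groups, and centring the arrays parted the groups for Adam3 but not for Adam5. Adam3 had a log2 fold change of 0.54 (SE 0.31), or 0.20 without GC13 replicate 3, and Adam5 one of 0.64 (SE 0.31). Their plain or family probe sets lay between 0.812 and 8.43 on all arrays. The other germ cell and epididymis members, Adam2, Adam4 and Adam7, lay between 0.0557 and 8.25 on all arrays and were not tested. Of 7 male germ cell markers measured, 1 passed the filter, Tnp1, again by an _r_at probe set, with 174 to 209 on GC13 replicates 1 and 3, 76.3 on GC13 replicate 2 and 64.4 to 76.3 on the FVB arrays, while the other 6, the protamine genes Prm1 and Prm2 among them, stayed below the filter.

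Of the remaining ADAMs, Adam15, a protease with an integrin-binding disintegrin domain, had 39.7, 20.7 and 53.4 in GC13, against 25.4, 23.6 and 31.9 in FVB, at a log2 fold change of 0.45 (SE 0.28), and GC13 replicate 2 again lay on the other side of the FVB arrays from replicates 1 and 3. Without replicate 2 the value for Adam15 was 0.72 (limma, SE 0.19, adjusted p = 0.0516), and without replicate 3 it was 0.25. Adam8, a protease of leukocytes, had 19.4, 14.7 and 4.64 in GC13, against 18.5, 22.0 and 18.2 in FVB, so that its log2 fold change of -0.61 (SE 0.45) came mostly from GC13 replicate 3, without which it was -0.03. Adam11, Adam22 and Adam23 lack protease activity and bind secreted Lgi proteins at synapses. Adam11 and Adam23 had log2 fold changes of -0.12 (SE 0.21) and -0.06 (SE 0.33). Adam22, below the filter, had 5.26, 4.49 and 11.3 in GC13, against 2.82, 3.03 and 2.96 in FVB, with no overlap. It was the 1 of 22 dim members without overlap, beside 22.9% of the 9316 probe sets past the filter. The share among all dim probe sets was not computed. Centring also parted the groups on 1 dim Adam2 probe set. Adam22 had a log2 fold change of 0.87 and a limma adjusted p of 0.200 when all 12422 probe sets were tested. Adamts1, a secreted protease that cuts versican and aggrecan, had 4.27, 5.29 and 3.33 in GC13, against 1.21, 3.36 and 2.07 in FVB, also below the filter. With all probe sets tested, Adam22 and Adamts1 were the 2 of 22 dim members with an unadjusted p under 0.05, and 0 of the 22 passed after adjustment, in a fit where 14.9% of all probe sets had an unadjusted p under 0.05 and 0.290% passed.

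**Figure D2:**
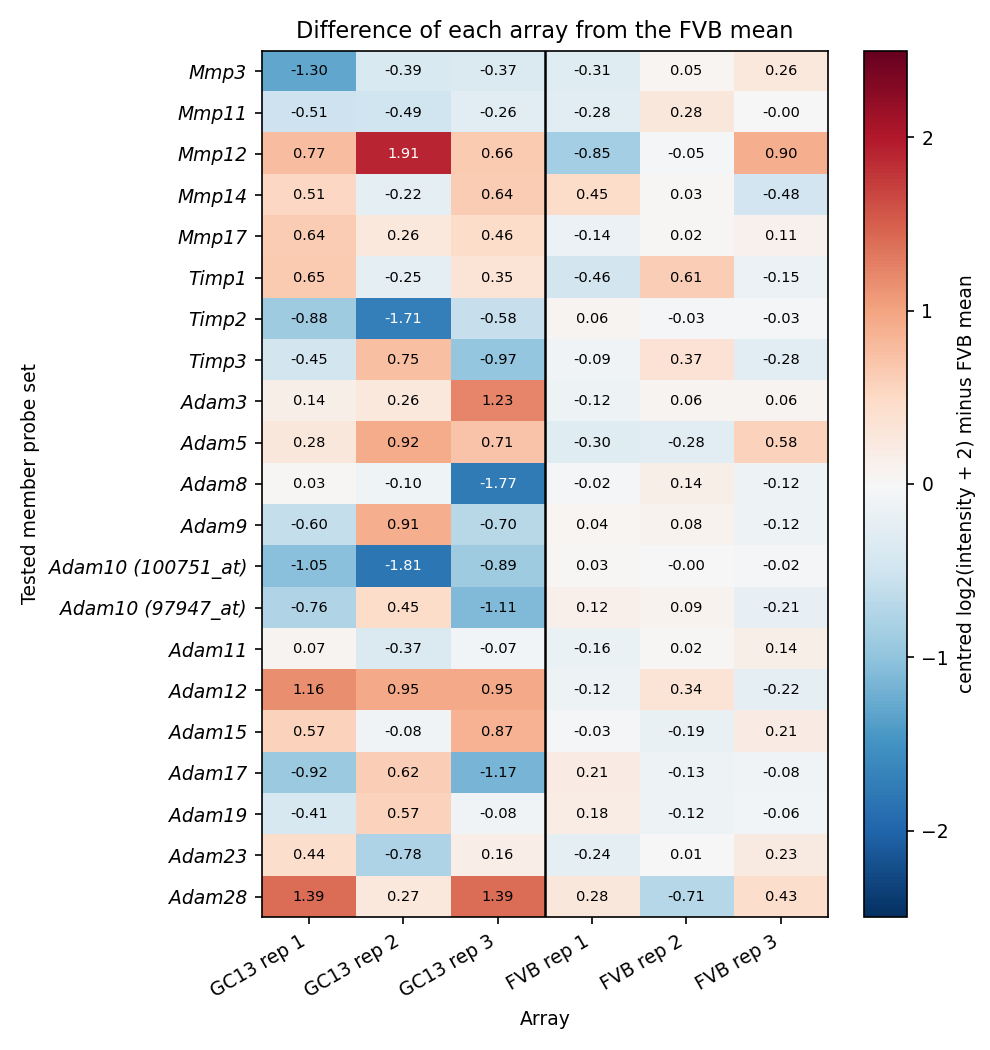
Difference of each array from the FVB mean on the centred log2(intensity + 2) scale for the 21 tested member probe sets (rows), with GC13 replicates 1 to 3 left and FVB replicates 1 to 3 right of the line; red is higher and blue lower than the FVB mean. GC13 replicate 2 has the opposite sign to GC13 replicates 1 and 3 in 9 rows, among them Adam9, Adam17, Timp3 and the second Adam10 probe set, and the same sign in Adam12, Timp2 and the first Adam10 probe set.

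The GC13 samples differed among themselves over the members. GC13 replicate 2 also parted from replicates 1 and 3 on Eif2s3y, at 143 against 3.25 and 4.60. On the Gapdh ratio it stood at 9.58 against 2.22 and 2.19. Sex and RNA quality thus cannot be told apart in how GC13 replicate 2 differs from the other 2 GC13 arrays. On the centred scale, GC13 replicate 2 lay on the other side of the FVB mean from both replicates 1 and 3 for 9 of the 21 tested members, 42.9% beside 34.6% of all 9316 probe sets. These were Timp3, Adam9, Adam17, Adam19 and the brighter Adam10 probe set, higher on replicate 2 and lower on the other GC13 arrays, and Mmp14, Timp1, Adam15 and Adam23, lower on replicate 2 and higher on the others. For Adam9 the differences from the FVB mean on GC13 replicates 1, 2 and 3 were -0.60, 0.91 and -0.70, for Adam17 -0.92, 0.62 and -1.17, and for Timp3 -0.45, 0.75 and -0.97. The median difference over the 21 members was 0.07, 0.26 and -0.07 on GC13 replicates 1, 2 and 3, close to the 0.07, 0.21 and -0.02 of all probe sets tested.

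**Figure D3:**
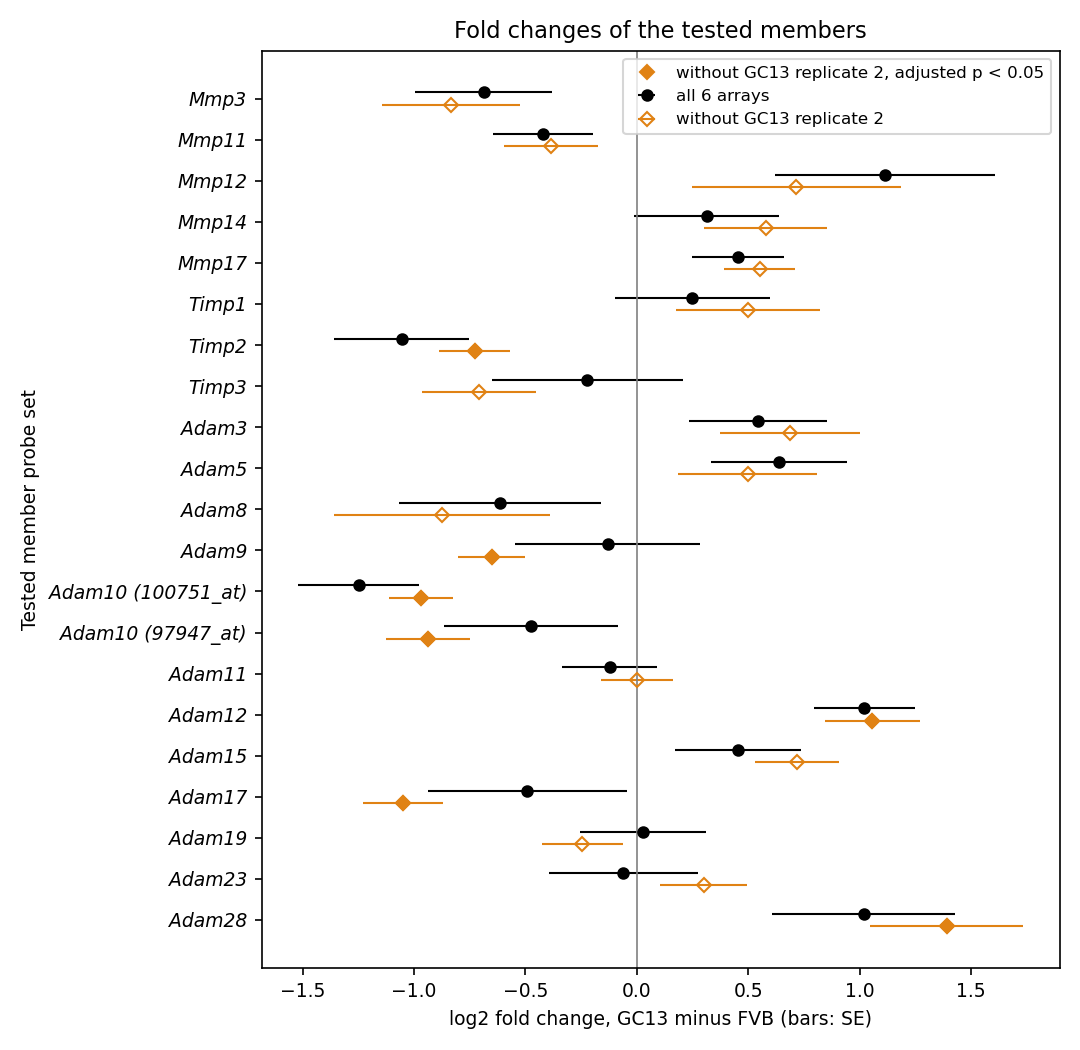
log2 fold change (GC13 minus FVB) with its SE for each tested member probe set, from all 6 arrays (black circles) and without GC13 replicate 2 (orange diamonds, filled where the limma adjusted p was under 0.05). The 7 filled diamonds are Timp2, Adam9, both Adam10 probe sets and Adam17, below 0, and Adam12 and Adam28, above 0. Without GC13 replicate 2, sex also divides the groups, and 14.8% of all probe sets passed.

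Genes related to these protease families were taken from lists of activators, partners, substrates and other proteases, each gene by its brightest tested probe set. Of 18 tested genes of the plasminogen system and of other activators and inhibitors of metalloproteinases, 0 passed, with 10 above 0, 8 below and a median log2 fold change of 0.09. Tspan5, a tetraspanin that carries Adam10 to the cell surface, had 15.4, 16.7 and 8.60 in GC13, against 41.4, 47.4 and 48.6 in FVB, with no overlap and a log2 fold change of -1.58 (limma, SE 0.31, adjusted p = 0.0819). Plau, the urokinase that turns plasminogen into plasmin, had 14.6, 7.81 and 19.8 in GC13, against 6.04, 8.19 and 10.3 in FVB, a log2 fold change of 0.68 (limma, SE 0.27, adjusted p = 0.296). Pcsk5, a proprotein convertase, had 0.89 (SE 0.28), by an _r_at probe set, and Cd44, the hyaluronan receptor and an Adam10 substrate, had -0.69 (SE 0.26), neither past the threshold. Without GC13 replicate 2, where 14.8% of all probe sets passed, limma called 3 of the 18 higher and 2 lower in GC13, among them Tspan5 (adjusted p = 0.0125), Plau (adjusted p = 0.0391), Pcsk5 (adjusted p = 0.0300) and Cd44 (adjusted p = 0.0185). Of 10 other metallopeptidases tested, 0 passed, and their median was 0.12. The neutral endopeptidase gene Mme had 13.9, 8.52 and 3.47 in GC13, against 30.8, 26.2 and 33.2 in FVB, with no overlap and a log2 fold change of -1.65 (limma, SE 0.41, adjusted p = 0.138). Mep1b, a meprin gene read by an _r_at probe set, stood at 1.33 (SE 0.42), the endothelin-converting enzyme gene Ece1 -0.41 (SE 0.20) and the procollagen C-proteinase gene Bmp1 0.44 (SE 0.23). The limma adjusted p without GC13 replicate 2 was 0.0459 for Mme and 0.0314 for Mep1b, and no other gene of the 10 passed.

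Cathepsins, the lysosomal proteases, and their cystatin inhibitors had 12 of 13 tested genes below 0 and a median of -0.31, with 0 past the threshold. Ctsf had 75.3, 36.4 and 76.9 in GC13, against 124, 119 and 146 in FVB, a log2 fold change of -1.02 (limma, SE 0.26, adjusted p = 0.145). Ctse, Ctsd and Ctsk also lay lower in all GC13 samples than in any FVB sample, with log2 fold changes of -1.32, -0.88 and -0.54. Without GC13 replicate 2, limma called 5 of the 13, all lower in GC13, beside 14.8% of all probe sets, in the comparison that sex also divides.

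Of 30 tested membrane proteins that ADAMs are known to shed, 0 passed, with 14 above 0, 16 below and a median of -0.04. Tgfa, a ligand of the epidermal growth factor receptor released by Adam17, had 41.1, 40.6 and 37.9 in GC13, against 83.2, 81.2 and 72.0 in FVB. The groups did not overlap, GC13 replicate 2 lay with its group, and the log2 fold change was -0.87 (limma, SE 0.21, adjusted p = 0.135). Hbegf, a further ligand of that receptor, had 6.15, 6.83 and 19.2 in GC13, against 21.2, 21.6 and 24.2 in FVB, a log2 fold change of -1.004 (limma, SE 0.33, adjusted p = 0.216). Epha2, an ephrin receptor, had -0.88 (SE 0.25) and Fgfr2, a fibroblast growth factor receptor, 0.67 (SE 0.21), each with groups that did not overlap and neither past the threshold. With GC13 replicate 2 left out, limma called 1 of the 30 higher, Fgfr2 (adjusted p = 0.0418), and 5 lower, Tgfa (adjusted p = 0.0187) among them, beside the same 14.8%.

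Matrix proteins known as substrates of ADAMTS proteases or of metalloproteinases, not of the members alone, lay mostly above 0. The 1 ADAMTS member, Adamts1, was below the filter. Of 12 tested ADAMTS substrates 1 rose, the proteoglycan gene Vcan, at a log2 fold change of 1.32 (limma, SE 0.21, adjusted p = 0.0489), and 0 fell, with 10 above 0 and a median of 0.37. In that fit 0.472% of all probe sets passed. With any 1 FVB array left out 0 probe sets passed, so the call of Vcan did not hold there. Without GC13 replicate 1 or 3, 9 and 11 probe sets passed and 0% of them were higher in GC13, so it did not hold there either. It held without GC13 replicate 2 (limma, adjusted p = 0.0105), in the comparison that sex also divides. Matn4, a matrilin, had 34.3, 21.7 and 41.0 in GC13, against 53.8, 57.4 and 54.4 in FVB, at -0.71 (limma, SE 0.21, adjusted p = 0.194). Col1a2 and Col1a1, the chains of collagen I, had 0.64 (SE 0.21) and 0.54 (SE 0.21). Of 18 tested metalloproteinase substrates 0 passed, all 18 lay above 0 and their median was 0.52, beside 0.08 for all probe sets. Tnc, the glycoprotein tenascin C, had 294.6, 282 and 282 in GC13, against 139.7, 132 and 139 in FVB, with no overlap and a log2 fold change of 1.13 (limma, SE 0.20, adjusted p = 0.0669). Col5a1, a collagen V chain, and Eln, elastin, had 1.10 (SE 0.21) and 1.03 (SE 0.22), likewise without overlap and not past the threshold. Without GC13 replicate 2, limma called 7 of the 18 substrates, all higher, with Tnc (adjusted p = 0.0131), Col5a1 (adjusted p = 0.00820) and Eln (adjusted p = 0.0103) among them, and 4 of the 12 ADAMTS substrates, 3 higher and 1 lower, beside 14.8% of all probe sets. Both lists were drawn up with the higher level of dermal matrix genes on these GC13 arrays known, so their direction is no independent evidence. The collagen genes that make up most of the fibroblast marker sum are themselves on these lists, so that sum gives no separate measure of cell number.

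**Figure D4:**
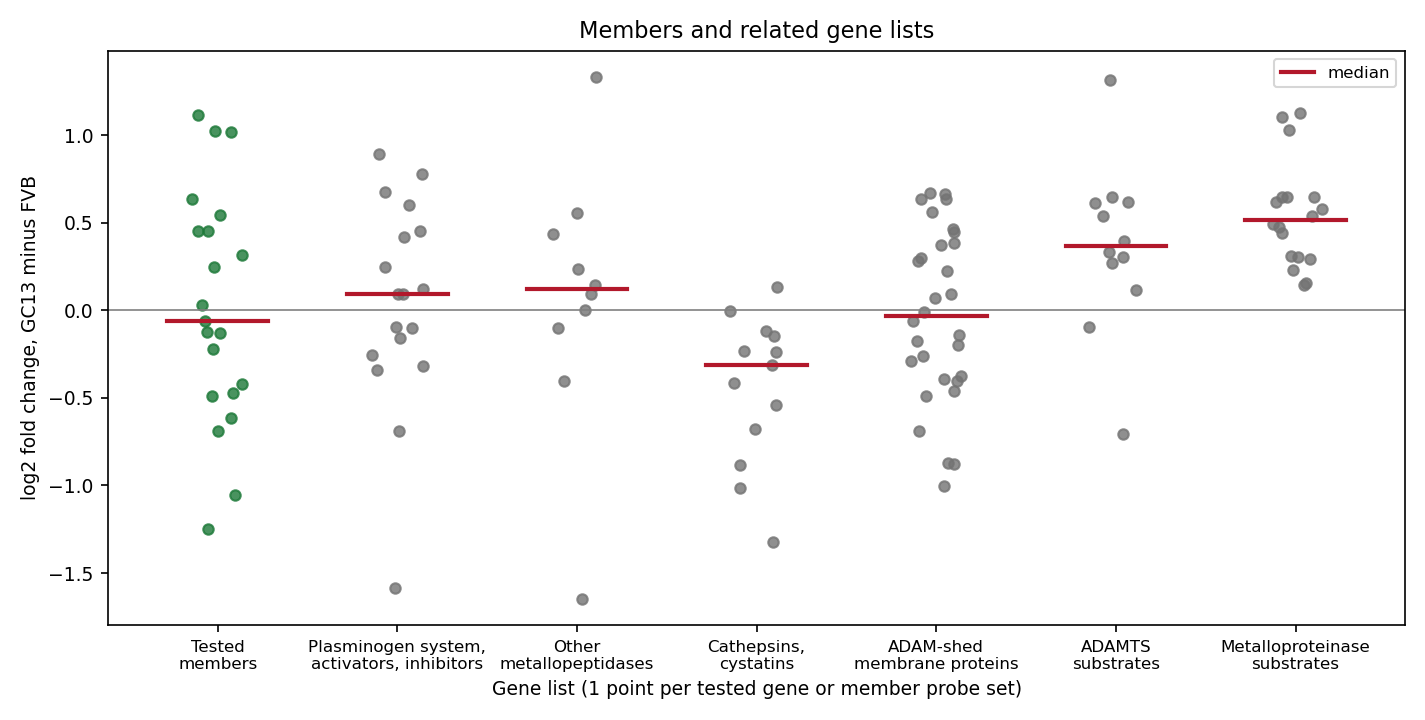
log2 fold change (GC13 minus FVB) of each tested member probe set (green) and of each tested gene of 6 related lists (grey), with the median of each as a red line; horizontal scatter has no meaning. The members spread evenly about a median of -0.06, while the cathepsins lie mostly below 0 and all 18 metalloproteinase substrates above it.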

How the data were processed

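Total RNA of 3 GC13 and 3 FVB skin samples was measured on single-sample arrays. The deposited values are intensities on a linear scale, all above 0, and the values show a common scaling of every array to a mean of about 100.05 with the highest and lowest 2% left out. The software behind them is not given in the sources used here, and depth does not apply; 3 arrays per group limit the precision. The 66 control probe sets were set aside. The other 12422 were put on the log2(intensity + 2) scale, centred on each array's median, since medians differed by up to 0.345, and the 25% with the lowest mean were left out. GC13 minus FVB was fitted on 9316 probe sets with limma 3.58.1 in R 4.3.3 (lmFit, eBayes), two-sided, with Benjamini-Hochberg adjustment and a threshold of 0.05. The fit was also run on simulated data with planted changes and independent noise on each array. Such data lack the differences in sex and RNA quality among these arrays, and no outcome is drawn from them here.

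Names came from the platform annotation, updated through Entrez identifiers with RefSeq GRCm38.p6, in which all 43 member probe sets were found. Of the probe sets, 10833 had 1 symbol, 396 several and 1193 none. The array's build is not given in the sources used here, so RefSeq was used for names, gene order and upstream sequence only. Members and lists were chosen with earlier results of these data known. Every member is named. Full values were given, by rule, to members whose groups did not overlap and differed by at least 0.5 (log2), to their other probe sets and to the 3 members of each subfamily with the smallest p, and the 4 genes with the smallest p were named from each list. Other values were chosen after they were seen. Tried as alternatives were 3 pseudocounts, looser and stricter filters, no centring, quantile normalization, a trended variance prior, array weights, the replicate number as a block, and leaving out each array.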

Additional observations from a re-analysis of the deposited data

How the results depend on the processing

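With all 6 arrays, 0 of 21 members passed (limma), 4 at an unadjusted p under 0.05, and under 14 of 16 alternatives no member passed either. Array weights, which gave GC13 replicate 2 a weight of 0.107 and GC13 replicate 1 one of 4.12, called 10 of 21 members and 3850 of 9316 probe sets. Leaving out 1 array each called between 0 and 7 members and between 0 and 1379 probe sets; 0 were called without any 1 of the FVB replicates, and the highest counts came without GC13 replicate 2. Against 44 probe sets in all, 116 passed with a pseudocount of 32, 23 with the lowest 50% left out, 28 without centring and 78 with the replicate block. Same-numbered samples did not deviate together in all pairs (correlations -0.07, 0.18 and 0.36), so the block is not a pairing. The members' median ran from -0.11 to 0.15 when 1 array was left out and was 0.17 with no filter, where 43 probe sets were tested, beside -0.06.

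Members near 0 changed sign. Adam19 (0.03) was -0.046 without centring, -0.39 with array weights and between -0.24 and 0.25 without 1 array. Adam23 (-0.06) was 0.012 with a pseudocount of 32, 0.45 with array weights and between -0.31 and 0.30 without 1 array. Adam11 (-0.12) was 0.089 with array weights. Without 1 array, Adam9 ran from -0.65 to 0.15 and Timp3 from -0.71 to 0.15. Apart from the effect of the arrays left out, the cause was not tested. The probe sets of Adam10, Adam12, Timp2 and Adam28 that passed the filter kept their sign under every alternative in which they were tested. The dim Timp2 probe sets, tested with no filter only, had the opposite sign, at 0.54 and 0.14. Dim members have unknown signal over background.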
